A study of Mus musculus with 15 samples.

Results

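Wnt-driven intestinal stem cell genes were followed in the small intestine of mouse embryos at embryonic day E16.5. They are 10 genes chosen by name, Lgr5, Ascl2, Olfm4, Axin2, Smoc2, Rnf43, Znrf3, Nkd1, Tnfrsf19 and Prom1, out of 36528 Entrez gene IDs in the deposited counts. RNA was sequenced in 15 libraries, 5 from each of 3 genotypes. All 3 genotypes lacked Mlkl (MLKL knockout), the pseudokinase that executes necroptosis. They differed in the gene of caspase-8, Casp8: the first group had wildtype Casp8, the second a Casp8 knockout, and the third a Casp8 C362A knockin, in which the cysteine that carries out cleavage is replaced by alanine. The groups are called wildtype, knockout and C362A below. The labels record the C362A tissue as inflamed and the tissue of the other groups as normal. They give no litter, sex, number of embryos per library or stretch of intestine, and nothing says that the libraries came from separate animals, so p-values measure only the spread between these samples.

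Wnt ligands bind Frizzled and LRP receptors and keep beta-catenin from being degraded, after which beta-catenin drives transcription together with TCF/LEF factors. In the adult intestine this signal maintains the stem cells at the crypt base, where R-spondins acting through Lgr5-family receptors strengthen it by removing the ubiquitin ligases Rnf43 and Znrf3 from its path. Several of the genes followed here are targets that restrain the pathway in turn (Axin2, Nkd1, Rnf43, Znrf3), and others are used as markers of crypt-base cells (Lgr5, Ascl2, Olfm4, Smoc2, Tnfrsf19, Prom1). At this fetal stage villi have formed but mature crypts have not, and proliferating progenitors lie between the villi. The RNA came from whole tissue, so fewer cells of a type and less RNA per cell cannot be told apart.

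Between 31896399 and 38532127 reads per library were assigned to genes. Casp8 was measured at 70.1 ± 5.97 CPM (counts per 1000000 assigned reads, scaled with TMM factors; mean ± SD, n = 5) in wildtype, 14.4 ± 1.65 in the knockout and 69.9 ± 3.41 in C362A, and its log2 fold change in the knockout against wildtype was -2.28 (SE 0.08, adjusted p = 2.55e-11, edgeR quasi-likelihood test). Intestinal epithelium was well represented: the summed level of 10 epithelial markers, among them Cdx2, Epcam and Vil1, ranged from 5868 to 7875 CPM. Squamous epithelial markers summed to 117 CPM in C362A replicate 4 and to 3.79 to 9.02 CPM in the other 14 libraries, and liver markers summed to 209 to 1391 CPM over all libraries. The Y-linked genes Ddx3y, Eif2s3y, Kdm5d and Uty summed to a median of 0.06 CPM in C362A (0 to 113). Their median was 121 CPM in wildtype (0.053 to 135) and 137 in the knockout (0.19 to 156). Libraries with and without this male signal were thus unevenly spread over the genotypes. The sample ID numbers in the labels form 2 runs of consecutive numbers, with 2 and 3 libraries of each genotype. The labels do not say what the runs stand for, and values within them are given where the direction of an estimate turned between a run and all libraries. Of the 5 Paneth cell markers, Defa5 was at 0 in all 15 libraries, and Lyz1, Defa17, Defa24 and Mmp7 were detected at low levels in every library, with group means of up to 16.52 CPM for Defa24. In a bulk tissue the 10 genes cannot be checked cell by cell, but they can be checked as a group, and they did not vary as one: of their 45 pairs, 22 had a positive correlation across the 15 libraries and the median r was -0.04.

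All 10 genes were expressed in every library, with 145 reads as the lowest count of any of them. On the deposited RPKM scale, which divides by gene length and so allows levels of different genes to be compared, Smoc2 stood first at 43.6 (mean over 15 libraries). Smoc2, a secreted matricellular protein, was followed by Olfm4, a secreted glycoprotein of crypt-base cells, at 14.5 RPKM. Nkd1, Rnf43 and Prom1 lay close together at 8.59, 8.18 and 7.78 RPKM. Axin2 and Tnfrsf19 came next, at 5.002 and 4.96 RPKM. Ascl2, Lgr5 and Znrf3 were lowest, at 2.31, 2.25 and 1.87 RPKM.

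Smoc2 exceeded Olfm4, Prom1 exceeded Axin2, and Tnfrsf19 exceeded Ascl2 in 15 of 15 libraries. Olfm4 exceeded Nkd1 in 12 libraries, Nkd1 exceeded Rnf43 in 10, and Lgr5 exceeded Znrf3 in 11. The order of Axin2 and Tnfrsf19 held in 8 of 15 libraries, as did that of Ascl2 and Lgr5, so neither pair was separated beyond the spread between libraries. Rnf43 exceeded Prom1 in 5 of 5 wildtype, 3 of 5 knockout and 0 of 5 C362A libraries. The means of this pair were close, at 8.18 and 7.78 RPKM. Other close neighbours also split unevenly: Nkd1 exceeded Rnf43 in 2 wildtype, 3 knockout and 5 C362A libraries, and Ascl2 exceeded Lgr5 in 1, 3 and 4. Axin2 exceeded Tnfrsf19 in 3, 3 and 2. None of these splits was tested, and close pairs outside the 10 genes were not counted. The summed RPKM of the 10 genes stayed between 91.2 and 104 in all libraries, while its make-up shifted: Smoc2 took 36.9% to 52.1% of the sum and Olfm4 6.21% to 26.8%. Both extremes of the ratio of Smoc2 to Olfm4 were wildtype libraries, at 1.38 in wildtype replicate 4 and 8.39 in wildtype replicate 1.

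**Figure D1:**
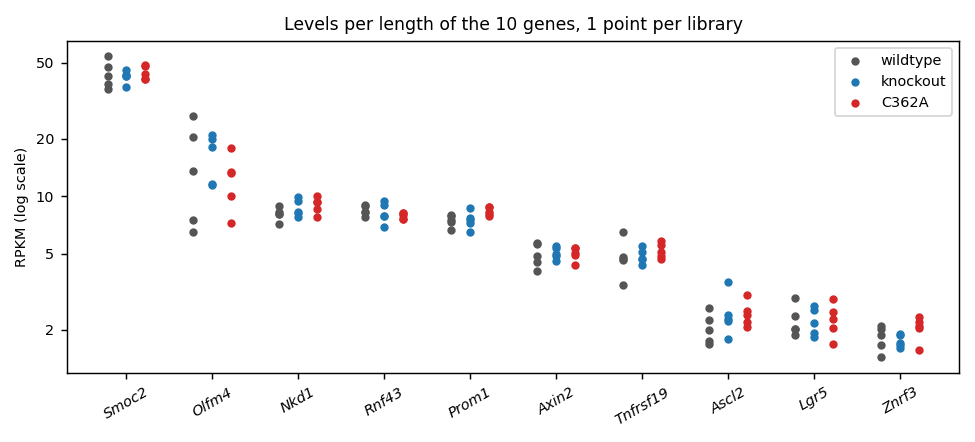
Deposited RPKM of the 10 genes in each of the 15 libraries, by genotype, with genes ordered by their mean and a log axis. Smoc2 lies above the other genes in every library, and Olfm4 has the widest spread.

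RefSeq promoters on GRCm38.p6 (300 bases, from 250 before to 50 after a transcription start) were available here for 7 of the 10 genes, 10 promoters in all. Lgr5, Smoc2 and Znrf3 had no entry in that table. Each promoter was searched on both strands for CTTTGAT, a core of the site bound by TCF/LEF factors, and for CANCTG, a core of the E-box bound by basic helix-loop-helix factors such as Ascl2. The promoters below belong to Tnfrsf19, Nkd1 and Axin2, 3 of the 5 genes whose levels rose with mesenchyme and fell with enterocyte markers across libraries, as described further on. Tnfrsf19 has 2 promoters in the table, and the one printed is that with a CTTTGAT match. They differ in these motifs, which are in capitals. They lie at chr14:61037938-61038237 (minus strand, Tnfrsf19), chr8:88527383-88527682 (plus strand, Nkd1) and chr11:108920099-108920398 (plus strand, Axin2). All lie inside the spans of their genes, which are chr14:60963834-61046855, chr8:88521342-88594887 and chr11:108917828-108950783. Their starts are therefore internal ones and not the outermost start of each gene.
Tnfrsf19: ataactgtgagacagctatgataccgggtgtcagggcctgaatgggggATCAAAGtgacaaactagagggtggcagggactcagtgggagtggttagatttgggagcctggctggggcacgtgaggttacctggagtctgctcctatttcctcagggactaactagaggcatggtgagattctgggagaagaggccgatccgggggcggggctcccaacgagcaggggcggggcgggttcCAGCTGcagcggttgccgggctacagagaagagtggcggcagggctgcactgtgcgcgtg
Nkd1: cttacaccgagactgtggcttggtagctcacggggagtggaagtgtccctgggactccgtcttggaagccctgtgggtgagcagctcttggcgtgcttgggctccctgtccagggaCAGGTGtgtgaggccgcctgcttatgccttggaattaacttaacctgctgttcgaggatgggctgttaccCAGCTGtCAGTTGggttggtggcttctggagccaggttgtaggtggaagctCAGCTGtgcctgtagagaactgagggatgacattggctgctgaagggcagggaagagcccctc
Axin2: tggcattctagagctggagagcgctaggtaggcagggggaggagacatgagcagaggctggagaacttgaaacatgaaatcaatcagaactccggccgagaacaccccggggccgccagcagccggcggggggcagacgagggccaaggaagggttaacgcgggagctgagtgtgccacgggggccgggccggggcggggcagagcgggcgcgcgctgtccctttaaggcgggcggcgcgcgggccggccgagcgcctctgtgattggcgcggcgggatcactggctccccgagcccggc
This Tnfrsf19 promoter held the single CTTTGAT match among the 10 promoters. It begins 202 bases before the start and reads as the reverse complement, and 1 CANCTG match begins 10 bases before the start. The other Tnfrsf19 promoter, at chr14:61046806-61047105 on the minus strand, covers the outer end of the gene. It held no CTTTGAT and 3 CANCTG matches. The internal Nkd1 promoter shown held 4 CANCTG matches, beginning 134, 64, 57 and 13 bases before its start. The internal Axin2 promoter shown held neither motif and had a GC content of 70%, against a median of 52.7% over all 32851 promoters of the table. Over those, 3.73% held CTTTGAT and 51.4% held CANCTG, beside 1 of 10 and 5 of 10 for the promoters of these genes, and no 2 matches overlapped. A match of letters is a description of this window and not a measured binding site.

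No gene of the 10 passed the test in any comparison of genotypes. In C362A against wildtype 0 of 10 had an adjusted p under 0.05 by edgeR's quasi-likelihood test, where 15 of 18370 genes tested, 0.0817%, did. In the knockout against wildtype the count was 0 of 10, beside 7 genes overall (0.0381%), and in C362A against the knockout it was 0 of 10, beside 2 genes overall (0.0109%). Without adjustment, 1 of 10 (Prom1, higher) had p under 0.05 in C362A against wildtype and 0 of 10 in each of the other comparisons. The corresponding shares of all genes were 15.9%, 2.43% and 13.9%. DESeq2 also called 0 of 10 in each comparison, in the same order beside 0.294%, 0.0708% and 0.142% of all genes. So did limma-voom (beside 0.0762%, 0.0381% and 0.0163%) and limma on log2(RPKM + 1) (beside 0.0871%, 0.0327% and 0.0272%). The 3 comparisons share samples and are not independent of each other.

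The estimates were small. The median log2 fold change over the 10 genes was 0.07 in C362A against wildtype, 0.01 in the knockout against wildtype and 0.04 in C362A against the knockout, beside 0.01, -0.0045 and 0.01 over all genes tested. The estimate was above 0 for 8, 6 and 6 of the 10 genes, beside 9437, 8855 and 9768 of all 18370. The CPM ranges of every pair of genotypes overlapped for all 10 genes. Over all genes tested, ranges failed to overlap for 1.16% in C362A and wildtype, 0.702% in the knockout and wildtype, and 2.85% in C362A and the knockout.

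**Figure D2:**
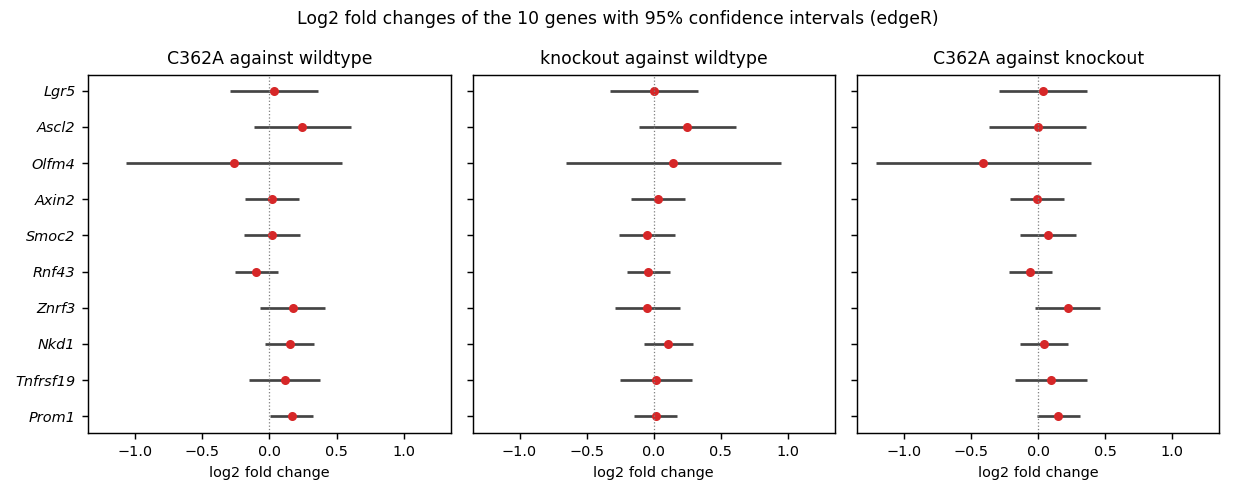
Log2 fold change of each of the 10 genes in the 3 comparisons, as points with their 95% intervals from edgeR. All but 1 interval include 0, the exception being Prom1 in C362A against wildtype, and the interval of Olfm4 is the widest.

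Lgr5 (Entrez 14160, chr10:115450314-115587780, GRCm38.p6), the R-spondin receptor that marks crypt-base stem cells, had nearly the same mean in the 3 genotypes. In wildtype, Lgr5 was measured at 9.08, 9.64, 9.77, 11.4 and 14.1 CPM (mean 10.8 ± 2.02, SD, n = 5). In the knockout, Lgr5 was at 8.76, 9.35, 10.5, 12.4 and 12.9 CPM (mean 10.8 ± 1.81, SD, n = 5). In C362A, Lgr5 was at 8.13, 9.92, 11, 12 and 14.1 CPM (mean 11 ± 2.25, SD, n = 5). The highest and the lowest values of the 3 groups lay close together, with C362A replicate 1 lowest, and C362A replicate 5 and wildtype replicate 3 highest. For Lgr5 the log2 fold change was 0.033 (SE 0.16, 95% interval -0.29 to 0.36, adjusted p = 0.929) in C362A against wildtype, -0.00067 (SE 0.15, 95% interval -0.33 to 0.33, adjusted p = 0.9999) in the knockout against wildtype and 0.034 (SE 0.15, 95% interval -0.29 to 0.36, adjusted p = 0.933) in C362A against the knockout. These values rest on 261 to 485 reads per library, and the intervals of all 3 comparisons reach no further than 0.36 from 0.

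Ascl2 (Entrez 17173, chr7:142966822-142969264), the basic helix-loop-helix factor that maintains the stem cell state, had higher means in both mutant genotypes than in wildtype, with overlapping libraries. The wildtype libraries gave Ascl2 at 4.06, 4.18, 4.74, 5.41 and 6.22 CPM (mean 4.92 ± 0.90, SD, n = 5). The knockout libraries gave Ascl2 at 4.32, 5.33, 5.44, 5.76 and 8.45 CPM (mean 5.86 ± 1.54, SD, n = 5). The C362A libraries gave Ascl2 at 4.95, 5.3, 5.74, 5.96 and 7.22 CPM (mean 5.84 ± 0.869, SD, n = 5). Knockout replicate 4 stood above the other 14 libraries, and 3 of 5 wildtype libraries lay below every C362A library. For Ascl2 the log2 fold change was 0.25 (SE 0.17, 95% interval -0.12 to 0.61, adjusted p = 0.456) in C362A against wildtype, 0.25 (SE 0.17, 95% interval -0.11 to 0.61, adjusted p = 0.9999) in the knockout against wildtype and -0.0043 (SE 0.17, 95% interval -0.36 to 0.35, adjusted p = 0.993) in C362A against the knockout. It was counted with 145 to 271 reads per library. Within the libraries of the second run of sample ID numbers (3 per genotype), Ascl2 had a log2 fold change of 0.54 (SE 0.18, adjusted p = 0.0669, edgeR) in C362A against wildtype, and within the first run (2 per genotype) one of -0.19, a difference between the runs that was not tested. In the knockout against wildtype the values were 0.596 (adjusted p = 0.484, edgeR) within the second run and -0.27 within the first. Leaving out knockout replicate 4 moved the value of the knockout against wildtype from 0.25 to 0.079, and leaving out C362A replicate 1 moved that of C362A against wildtype from 0.25 to 0.159.

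**Figure D3:**
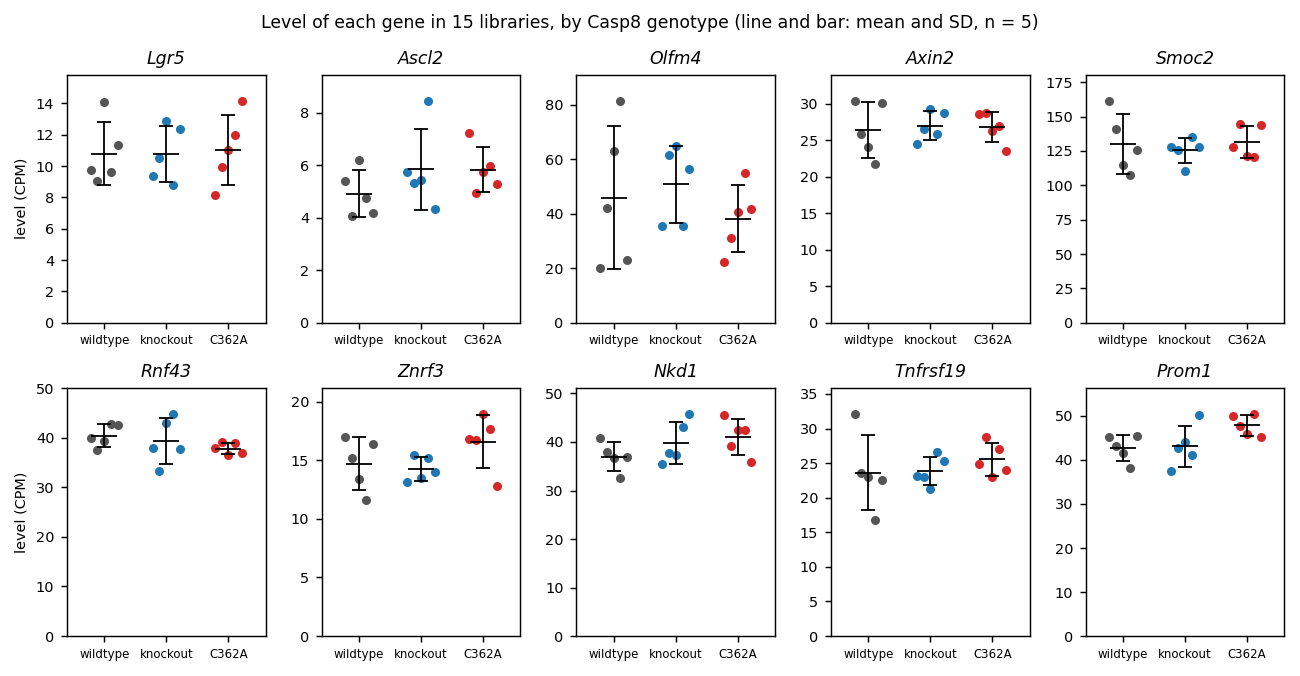
CPM of the 10 genes in each library, 1 panel per gene, with points for libraries and a line and bar for the mean and SD of each genotype (n = 5). The groups overlap in every panel, and the wildtype libraries spread widest for Olfm4.

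Olfm4 (Entrez 380924, chr14:80000302-80023141), a crypt-base marker that is also a target of Notch signalling, varied most. Olfm4 stood in the wildtype libraries at 20.1, 23.1, 42.1, 63 and 81.3 CPM (mean 45.9 ± 26.2, SD, n = 5). Olfm4 stood in the knockout libraries at 35.4, 35.7, 56.3, 61.6 and 64.8 CPM (mean 50.8 ± 14.2, SD, n = 5). Olfm4 stood in the C362A libraries at 22.3, 31.1, 40.8, 41.8 and 55 CPM (mean 38.2 ± 12.3, SD, n = 5). The wildtype group held both the lowest and the highest library of all 15, a 4.04-fold range, and both mutant groups lay inside it. For Olfm4 the log2 fold change was -0.26 (SE 0.37, 95% interval -1.06 to 0.54, adjusted p = 0.736) in C362A against wildtype, 0.15 (SE 0.37, 95% interval -0.65 to 0.94, adjusted p = 0.9999) in the knockout against wildtype and -0.41 (SE 0.37, 95% interval -1.21 to 0.39, adjusted p = 0.616) in C362A against the knockout. The coefficient of variation over the 15 libraries was 40.1%, larger than that of 98.2% of the 12746 genes with a mean of at least 5 CPM, whose median was 11.4%. With 696 to 2488 reads per library, counting error is small beside this spread.

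Smoc2 (Entrez 64074, chr17:14279490-14404790), the other secreted product, was the most abundant of the 10 per length. In wildtype, Smoc2 was measured at 107, 115, 126, 141 and 161 CPM (mean 129.9 ± 21.6, SD, n = 5). In the knockout, Smoc2 was at 110.2, 126, 127, 128 and 135 CPM (mean 125 ± 9.2, SD, n = 5). In C362A, Smoc2 was at 121, 122, 128, 144 and 144 CPM (mean 132 ± 11.6, SD, n = 5). The wildtype libraries spanned the widest range here as well, and wildtype replicate 1, the lowest library for Olfm4, was the highest for Smoc2. For Smoc2 the log2 fold change was 0.019 (SE 0.10, 95% interval -0.19 to 0.23, adjusted p = 0.939) in C362A against wildtype, -0.052 (SE 0.10, 95% interval -0.26 to 0.16, adjusted p = 0.9999) in the knockout against wildtype and 0.071 (SE 0.10, 95% interval -0.14 to 0.28, adjusted p = 0.758) in C362A against the knockout.

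Among the feedback inhibitors, Axin2 (Entrez 12006, chr11:108917828-108950783), a scaffold of the complex that degrades beta-catenin and a widely used readout of Wnt signalling, had nearly equal means in the 3 genotypes. The wildtype libraries gave Axin2 at 21.7, 24, 25.9, 30.1 and 30.4 CPM (mean 26.4 ± 3.8, SD, n = 5). The knockout libraries gave Axin2 at 24.4, 25.9, 26.6, 28.7 and 29.3 CPM (mean 27 ± 2.01, SD, n = 5). The C362A libraries gave Axin2 at 23.6, 26.3, 27, 28.6 and 28.7 CPM (mean 26.8 ± 2.1, SD, n = 5). The means lay within 1 CPM of each other, and wildtype held both the lowest and the highest library. For Axin2 the log2 fold change was 0.022 (SE 0.096, 95% interval -0.18 to 0.22, adjusted p = 0.925) in C362A against wildtype, 0.030 (SE 0.096, 95% interval -0.17 to 0.23, adjusted p = 0.9999) in the knockout against wildtype and -0.0085 (SE 0.096, 95% interval -0.21 to 0.19, adjusted p = 0.975) in C362A against the knockout.

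Nkd1 (Entrez 93960, chr8:88521342-88594887), a Dishevelled-binding antagonist and Wnt target, had higher means in both mutants than in wildtype. Nkd1 stood in the wildtype libraries at 32.7, 36.7, 36.8, 37.9 and 40.9 CPM (mean 37 ± 2.95, SD, n = 5). Nkd1 stood in the knockout libraries at 35.5, 37.3, 37.8, 43.1 and 45.7 CPM (mean 39.9 ± 4.3, SD, n = 5). Nkd1 stood in the C362A libraries at 35.9, 39.1, 42.4, 42.4 and 45.5 CPM (mean 41.1 ± 3.68, SD, n = 5). Wildtype replicate 4 was the lowest library and the groups overlapped over most of their range. For Nkd1 the log2 fold change was 0.15 (SE 0.086, 95% interval -0.030 to 0.33, adjusted p = 0.373) in C362A against wildtype, 0.11 (SE 0.086, 95% interval -0.073 to 0.29, adjusted p = 0.9999) in the knockout against wildtype and 0.043 (SE 0.086, 95% interval -0.14 to 0.22, adjusted p = 0.833) in C362A against the knockout. In C362A against wildtype it was 0.28 (adjusted p = 0.0788, edgeR) within the second run of ID numbers and -0.053 within the first.

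Rnf43 (Entrez 207742, chr11:87663087-87735539), a membrane ubiquitin ligase that removes Frizzled receptors, varied least of the 10, with a coefficient of variation of 7.68%. In wildtype, Rnf43 was measured at 37.5, 39.4, 39.9, 42.6 and 42.9 CPM (mean 40.5 ± 2.25, SD, n = 5). In the knockout, Rnf43 was at 33.3, 37.8, 38, 43.1 and 44.7 CPM (mean 39.4 ± 4.58, SD, n = 5). In C362A, Rnf43 was at 36.5, 36.8, 37.9, 38.8 and 39.1 CPM (mean 37.8 ± 1.15, SD, n = 5). The C362A libraries lay within the range of the knockout libraries. For Rnf43 the log2 fold change was -0.097 (SE 0.076, 95% interval -0.26 to 0.064, adjusted p = 0.51) in C362A against wildtype, -0.040 (SE 0.076, 95% interval -0.20 to 0.12, adjusted p = 0.9999) in the knockout against wildtype and -0.057 (SE 0.076, 95% interval -0.22 to 0.10, adjusted p = 0.745) in C362A against the knockout.

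Znrf3 (Entrez 407821, chr11:5276329-5444847), the ligase related to Rnf43, had its highest mean in C362A. The wildtype libraries gave Znrf3 at 11.6, 13.4, 15.2, 16.4 and 17 CPM (mean 14.7 ± 2.22, SD, n = 5). The knockout libraries gave Znrf3 at 13.1, 13.5, 14, 15.2 and 15.4 CPM (mean 14.2 ± 1.02, SD, n = 5). The C362A libraries gave Znrf3 at 12.8, 16.7, 16.8, 17.7 and 18.9 CPM (mean 16.6 ± 2.28, SD, n = 5). In C362A 4 of 5 libraries lay above every knockout library, and C362A replicate 5 lay below all of them. For Znrf3 the log2 fold change was 0.17 (SE 0.11, 95% interval -0.069 to 0.41, adjusted p = 0.435) in C362A against wildtype, -0.049 (SE 0.11, 95% interval -0.29 to 0.19, adjusted p = 0.9999) in the knockout against wildtype and 0.22 (SE 0.11, 95% interval -0.021 to 0.46, adjusted p = 0.385) in C362A against the knockout. Without C362A replicate 5 the log2 fold change against the knockout was 0.30 (adjusted p = 0.0831, edgeR) and that against wildtype 0.25 (adjusted p = 0.114).

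Tnfrsf19 (Entrez 29820, chr14:60963834-61046855), a TNF receptor family member and Wnt target found on crypt-base cells, differed less between genotypes than within wildtype. Tnfrsf19 stood in the wildtype libraries at 16.8, 22.6, 23, 23.5 and 32 CPM (mean 23.6 ± 5.45, SD, n = 5). Tnfrsf19 stood in the knockout libraries at 21.3, 23.1, 23.1, 25.3 and 26.6 CPM (mean 23.9 ± 2.08, SD, n = 5). Tnfrsf19 stood in the C362A libraries at 23, 24, 24.8, 27 and 28.8 CPM (mean 25.5 ± 2.36, SD, n = 5). Wildtype replicate 4 was the lowest and wildtype replicate 1 the highest of the 15 libraries. For Tnfrsf19 the log2 fold change was 0.11 (SE 0.13, 95% interval -0.15 to 0.38, adjusted p = 0.656) in C362A against wildtype, 0.015 (SE 0.13, 95% interval -0.25 to 0.28, adjusted p = 0.9999) in the knockout against wildtype and 0.098 (SE 0.13, 95% interval -0.17 to 0.36, adjusted p = 0.738) in C362A against the knockout.

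Prom1 (Entrez 19126, chr5:43993621-44102047), which encodes the membrane glycoprotein CD133 of stem and progenitor cells, gave the smallest unadjusted p of the 10 in C362A against wildtype. In wildtype, Prom1 was measured at 38.1, 41.7, 43.1, 45.2 and 45.4 CPM (mean 42.7 ± 3.01, SD, n = 5). In the knockout, Prom1 was at 37.5, 41.1, 42.8, 44 and 50.1 CPM (mean 43.1 ± 4.63, SD, n = 5). In C362A, Prom1 was at 45.2, 46, 47.6, 50.1 and 50.3 CPM (mean 47.9 ± 2.32, SD, n = 5). Of the 5 C362A libraries 4 lay above every wildtype library, and knockout replicate 5 was about as high as the highest of C362A. Its unadjusted p was 0.0459 by edgeR, with 15.9% of all genes under 0.05 in that comparison. For Prom1 the log2 fold change was 0.16 (SE 0.077, 95% interval 0.0034 to 0.33, adjusted p = 0.311) in C362A against wildtype, 0.014 (SE 0.077, 95% interval -0.15 to 0.18, adjusted p = 0.9999) in the knockout against wildtype and 0.15 (SE 0.076, 95% interval -0.010 to 0.31, adjusted p = 0.38) in C362A against the knockout.

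The number of genes called changed when C362A replicate 5 was left out and when each run of sample ID numbers was fitted alone. With all libraries and the ID run as a block, 16 of 18370 genes (0.0871%) were called in C362A against wildtype, beside 15 without the block. Without C362A replicate 5, 1807 of 18510 genes (9.76%) were called in C362A against wildtype, and 0 of the 10 stem cell genes, with the smallest adjusted p at 0.114 for Znrf3. In C362A against the knockout 4.35% of genes were then called, and 0 of the 10. Within the second run of ID numbers alone, 2478 of 18343 genes (13.5%) were called and again 0 of the 10. C362A replicate 5 belongs to the first run, so it was left out there too. Without adjustment, 3 of the 10 had p under 0.05 in C362A against wildtype in each of these fits, which were Znrf3, Nkd1 and Prom1 without C362A replicate 5 and Ascl2, Znrf3 and Nkd1 within the second run. The shares of all genes under that threshold were 30.4% and 32.2%, so 3 of 10 is near the background. C362A replicate 5 had the highest enterocyte marker level of its group, a sum of 16195 CPM beside 6834 to 10664 CPM in the other 4. Leaving out C362A replicate 4, the library with squamous markers, also gave 0 of 10 called in each comparison, beside 0.0647% of all genes in C362A against wildtype, 0.027% in the knockout against wildtype and 0.0108% in C362A against the knockout.

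The rest of the pathway was described with 6 lists of genes. In the fit of all 15 libraries, 0 genes of any list passed edgeR's test in any comparison, nor did any by DESeq2, limma-voom or limma on log2(RPKM + 1). In C362A against wildtype most estimates lay above 0, beside 9437 of all 18370 genes tested. Of 9 ligands and secretion factors, 6 were above 0 with a median log2 fold change of 0.13, and the smallest p-values were those of Wls, which carries Wnt proteins to the cell surface, at 0.27 (SE 0.093, adjusted p = 0.285) and of the ligand Wnt6 at 0.54 (SE 0.34, adjusted p = 0.404). Of 9 R-spondins and receptors tested (Rspo4 was not), 8 were above 0 with a median of 0.20, led by the receptor Fzd7 at 0.34 (SE 0.12, adjusted p = 0.285) and the R-spondin Rspo2 at 0.40 (SE 0.16, adjusted p = 0.286). The 10 secreted and membrane inhibitors split 5 to 5 with a median of 0.11, and the secreted Frizzled-related protein Sfrp1 stood at 0.48 (SE 0.14, adjusted p = 0.285) and Dkk3 at 0.26 (SE 0.083, adjusted p = 0.285).

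Of the 12 genes of the destruction complex and nuclear effectors, 10 were above 0 with a median of 0.09. Gsk3b, the kinase that marks beta-catenin for degradation, was at 0.17 (SE 0.076, adjusted p = 0.304) and Ctnnb1, which encodes beta-catenin, at 0.14 (SE 0.068, adjusted p = 0.316). All 9 other Wnt target genes were above 0 with a median of 0.15, led by the adhesion receptor Cd44 at 0.29 (SE 0.085, adjusted p = 0.285) and the cell cycle gene Ccnd1 at 0.25 (SE 0.075, adjusted p = 0.285). Among 12 other crypt progenitor and reserve stem cell genes, 9 were above 0 with a median of 0.04, where the telomerase gene Tert was at -0.58 (SE 0.19, adjusted p = 0.285) and Mex3a at 0.26 (SE 0.12, adjusted p = 0.305). Unadjusted, 1, 4, 2, 1, 2 and 2 genes of these lists had p under 0.05, in the order given, beside 15.9% of all genes.

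In the knockout against wildtype the medians of the 6 lists ran from -0.02 to 0.06. There 0, 0, 0, 0, 1 and 1 genes had an unadjusted p under 0.05, beside 2.43% of all genes. The 1 in both lists was Sox9, a progenitor transcription factor, at -0.18 (SE 0.077, adjusted p = 0.9999). The genes of smallest p in the other lists were Wnt9b at 1.05 (SE 0.66, adjusted p = 0.9999) and Wnt4 at -0.25 (SE 0.25, adjusted p = 0.9999) among ligands, Fzd7 at 0.12 (SE 0.12, adjusted p = 0.9999) and Lrp6 at 0.077 (SE 0.092, adjusted p = 0.9999) among receptors, and the secreted inhibitors Dkk1 at 0.51 (SE 0.26, adjusted p = 0.9999) and Notum at -0.58 (SE 0.36, adjusted p = 0.9999). Tcf7l2, the main intestinal TCF factor, stood at -0.20 (SE 0.13, adjusted p = 0.9999), Lef1 at 1.06 (SE 0.73, adjusted p = 0.9999) and Ly6a, a fetal and repair marker, at 0.69 (SE 0.34, adjusted p = 0.9999). In C362A against the knockout the medians ran from 0.06 to 0.19. With an unadjusted p under 0.05, 1, 2, 3, 0, 2 and 3 genes were higher and 0, 0, 1, 0, 0 and 1 lower, beside 13.9% of all genes. R-spondins and receptors were above 0 in 9 of 9 cases, beside 9768 of all 18370 genes, with Rspo2 at 0.46 (SE 0.16, adjusted p = 0.317) and Lrp5 at 0.20 (SE 0.079, adjusted p = 0.319). Sfrp1 was at 0.39 (SE 0.14, adjusted p = 0.317), Dkk3 at 0.21 (SE 0.083, adjusted p = 0.317) and Cd44 at 0.31 (SE 0.085, adjusted p = 0.317). Wls was at 0.23 (SE 0.093, adjusted p = 0.321) and Wnt6 at 0.48 (SE 0.33, adjusted p = 0.50). Of the transcription factors, Sox9 was at 0.19 (SE 0.077, adjusted p = 0.321), Tcf7l1 at 0.22 (SE 0.11, adjusted p = 0.384) and Lef1 at -0.92 (SE 0.72, adjusted p = 0.552). Tert was at -0.54 (SE 0.19, adjusted p = 0.317) and Mex3a at 0.30 (SE 0.12, adjusted p = 0.32).

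These list counts rested on C362A replicate 5. Without it, edgeR called 6 of the 58 genes of the lists in C362A against wildtype, beside 9.76% of all genes: Lrp5, Dkk3, Sfrp1, Ccnd1 and Cd44 were higher and Tert was lower. In C362A against the knockout it called Lrp5, Sfrp1 and Cd44 as higher and Tert as lower, 4 of 58 beside 4.35% of all genes. Within the second run of ID numbers, which also lacks C362A replicate 5, it called 12 of the 58 in C362A against wildtype, beside 13.5% of all genes. Of those, 10 were higher, and Tert and Notum were lower. Within the first run, with 2 libraries per genotype, it called 0 of the 58, beside 0 of all 18629 genes tested. There 0 of the 58 also had an unadjusted p under 0.05, beside 1.71% of all genes. No test compared these shares with the background. The genes named in this paragraph were singled out after their values were seen.

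The estimates of several marker lists leaned 1 way in C362A against wildtype, where 9437 of all 18370 genes tested were above 0. All 10 epithelial, 5 erythroid and 4 Y-linked markers were below 0, and all 6 smooth muscle and 4 endothelium markers above 0. The enterocyte, proliferation and mesenchyme lists are described below. Of the lists named here, 0 genes passed edgeR's test. Unadjusted, 8 of 12 enterocyte, 5 of 9 proliferation, 4 of 8 mesenchyme, 3 of 6 smooth muscle, 3 of 4 endothelium and 1 of 10 epithelial markers had p under 0.05, beside 15.9% of all genes. For the erythroid and Y-linked lists it was 0. The 12 enterocyte markers were below 0 in 11 cases with a median log2 fold change of -0.61, and their summed level was 6834 to 16195 CPM in C362A, 9831 to 31757 in wildtype and 16864 to 20372 in the knockout. The 9 proliferation markers were above 0 in 9 cases (median 0.31), at 1098 to 1639 CPM in C362A, 923 to 1376 in wildtype and 1179 to 1359 in the knockout. The 8 mesenchyme markers were above 0 in 8 cases (median 0.24), at 5664 to 8180 CPM in C362A, 4689 to 7473 in wildtype and 5220 to 7945 in the knockout. With the mean enterocyte marker level as a covariate, 0 of 10 genes were called in C362A against wildtype, beside 0.049% of all genes. This level was itself lower in every C362A library than in any knockout library, so the fit cannot fully separate it from genotype. Its ranges in C362A and wildtype overlapped, at 8.16 to 9.11 and 8.56 to 10.03 log2 CPM. Unadjusted, 4.7% of all genes had p under 0.05 in C362A against wildtype in this fit. The log2 fold change of Olfm4 in C362A against wildtype went from -0.26 to 0.74 (SE 0.23, unadjusted p = 0.00621, adjusted p = 0.745, edgeR) and that of Znrf3 from 0.17 to -0.032. That of Axin2 went from 0.022 to -0.16, that of Smoc2 from 0.019 to -0.095 and that of Tnfrsf19 from 0.11 to -0.091. With the epithelial marker level as the covariate, Olfm4 went to 0.064, Axin2 to -0.057 and Smoc2 to -0.033. Again 0 of 10 were called, beside 0.0599% of all genes. No fit was made with the mesenchyme or proliferation markers as a covariate.

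Across the 15 libraries the genes did not follow one another closely. Of 45 pairs, 2 had an adjusted permutation p under 0.05 for Pearson's r (100000 resamples, two-sided, adjusted over the 45), and 0 had one for Spearman's rho. The matrix protein gene Smoc2 and the receptor gene Tnfrsf19 had r = 0.79 (permutation p = 0.00055, adjusted p = 0.0248) and rho = 0.74 (permutation p = 0.00244, adjusted p = 0.0949). Without wildtype replicates 1 and 4, which lay farthest from the median of Smoc2, r was 0.54. Within the 2 runs of sample ID numbers it was 0.84 and 0.69. Nkd1 and Prom1 had r = 0.73 (permutation p = 0.00219, adjusted p = 0.0493) and rho = 0.65 (permutation p = 0.01, adjusted p = 0.109), and r was 0.60 without the 2 farthest libraries and 0.77 and 0.74 within the runs. Olfm4 and Smoc2 ran in opposite directions at r = -0.70 (permutation p = 0.00393, adjusted p = 0.0575). Positive pairs with the same adjusted p included Axin2 and Prom1 (r = 0.65, permutation p = 0.00825) and Znrf3 and Nkd1 (r = 0.65, permutation p = 0.00859). Every pair among Axin2, Znrf3, Nkd1, Tnfrsf19 and Prom1 had a positive r, from 0.53 to 0.73, and of these only Nkd1 and Prom1 passed. Without the 2 farthest libraries their r ran from 0.10 (Axin2 and Tnfrsf19) to 0.72 (Nkd1 and Tnfrsf19). Their rho with all libraries ran from 0.29 (Axin2 and Tnfrsf19) to 0.67 (Znrf3 and Nkd1). These genes were singled out after their values were seen. The stem cell markers Lgr5 and Ascl2 had r = -0.24 with each other, Lgr5 had 0.46 with Olfm4 and -0.08 with Axin2, and no pair of Lgr5 or of Ascl2 passed.

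**Figure D4:**
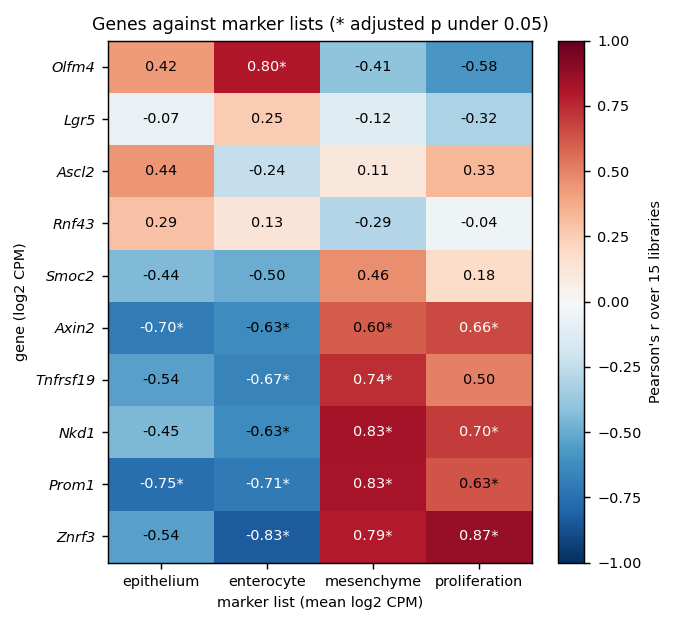
Pearson's r across 15 libraries between log2 CPM of each gene and the mean log2 CPM of 4 marker lists, with the pairs that passed an adjusted permutation p of 0.05 marked. Olfm4 is the only gene with a positive marked value for enterocyte markers, and Lgr5, Ascl2, Smoc2 and Rnf43 have no marked value.

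Several of the genes moved across libraries with markers of particular cell types. Each was compared with the mean log2 CPM of the epithelial, enterocyte, mesenchyme and proliferation marker lists, 40 relations in all, of which 17 passed (10 positive and 7 negative; permutation p adjusted over the 40). For Spearman's rho, 12 of those 17 also passed. All 17 kept their sign in deviations from genotype means and within both runs of ID numbers, and without the 2 libraries farthest from each list's median their r had a size of 0.32 to 0.86.

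Olfm4 rose with the enterocyte markers, r = 0.80 (permutation p = 0.00053, adjusted p = 0.00424) and rho = 0.83 (permutation p = 0.00019, adjusted p = 0.002). It was 0.68 without C362A replicate 1 and wildtype replicate 4, 0.88 in deviations from genotype means, and 0.97 and 0.72 within the runs. Znrf3 fell as the enterocyte markers rose, r = -0.83 (permutation p = 0.00021, adjusted p = 0.0021) and rho = -0.79, with -0.79 without the same 2 libraries and -0.67 and -0.89 within the runs. Prom1, Tnfrsf19, Nkd1 and Axin2 also fell with them, at r = -0.71, -0.67, -0.63 and -0.63. Of these, the value of Nkd1 was -0.32 and that of Axin2 -0.45 without those 2 libraries, so both leaned on them.

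Znrf3 rose with the proliferation markers, r = 0.87 (permutation p = 4e-05, adjusted p = 0.0016) and rho = 0.88, with 0.86 without C362A replicate 1 and wildtype replicate 4 and 0.93 and 0.89 within the runs. Nkd1, Axin2 and Prom1 did so at r = 0.70, 0.66 and 0.63, falling to 0.44, 0.49 and 0.39 without those libraries.

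With the mesenchyme markers, Prom1 and Nkd1 had r = 0.83 each (permutation p = 8e-05, adjusted p = 0.0016, and permutation p = 0.00014, adjusted p = 0.00187), with rho = 0.76 and 0.82. Znrf3 was at r = 0.79, Tnfrsf19 at 0.74 and Axin2 at 0.60 (adjusted permutation p = 0.00429, 0.00429 and 0.0437), and the rho of Axin2, 0.45, had an adjusted p of 0.163. Without C362A replicate 4 and wildtype replicate 4 these 5 values of r were between 0.49 and 0.77. With the epithelial markers, Prom1 was at r = -0.75 (permutation p = 0.00126, adjusted p = 0.0063) and Axin2 at -0.70 (permutation p = 0.00412, adjusted p = 0.015), or -0.70 and -0.52 without wildtype replicates 3 and 4. For Lgr5, Ascl2, Smoc2 and Rnf43 none of the 16 relations passed, with r from -0.50 to 0.46.

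**Figure D5:**
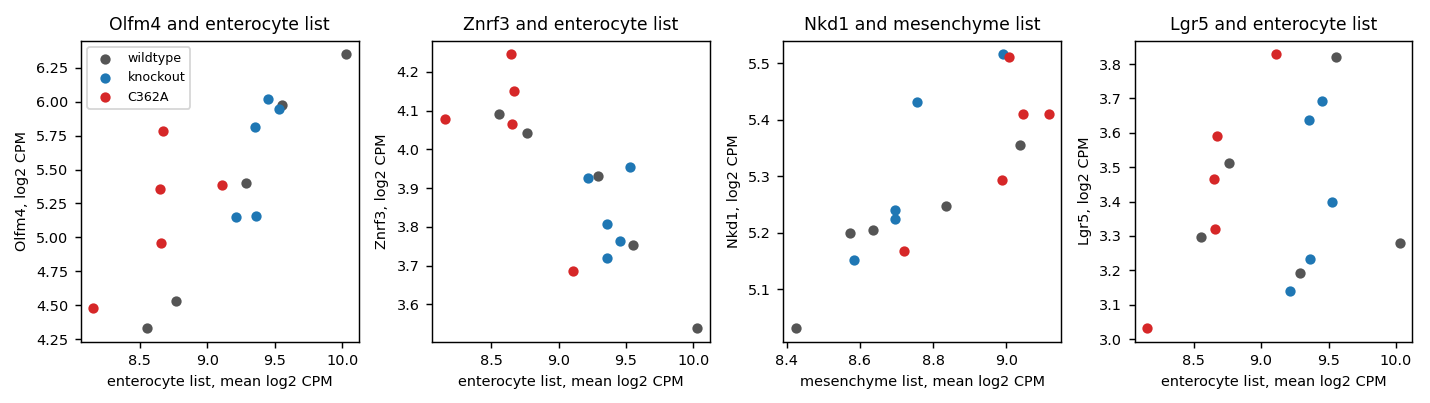
Log2 CPM of Olfm4, Znrf3 and Lgr5 against the mean log2 CPM of the enterocyte list, and of Nkd1 against that of the mesenchyme list, 1 point per library, coloured by genotype. Olfm4 rises (r = 0.80) and Znrf3 falls (r = -0.83) along the enterocyte axis, with wildtype replicate 4 at its right end, Nkd1 rises along the mesenchyme axis (r = 0.83), and Lgr5 shows no passed relation (r = 0.25).

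The lists are not independent of each other. Enterocyte and proliferation markers had r = -0.87 across the 15 libraries, enterocyte and mesenchyme markers -0.77, mesenchyme and proliferation markers 0.75, and epithelial and mesenchyme markers -0.67. Wildtype replicate 4, with the highest enterocyte marker level of all libraries, was the lowest of its genotype for Axin2, Smoc2, Znrf3, Nkd1, Tnfrsf19 and Prom1 and the highest for Olfm4.

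Genes outside the 10 whose log2 CPM was most like that of Lgr5 across the 15 libraries, out of 14433 whose log2 CPM averaged 1 or more, were Capn5 (r = 0.90), Arid5b (0.82), Dsg2 (0.81), Shroom2 (0.80) and Ptprk (0.79). Capn5 is a calcium-dependent protease, Arid5b a transcriptional regulator, Dsg2 a desmosomal cadherin, Shroom2 an actin-associated protein and Ptprk a receptor tyrosine phosphatase. Those most like Axin2 were Dhx33 (r = 0.91), Urb1 (0.88), Gm9899 (0.85), Gldc (0.85) and an unnamed gene with Entrez ID 102638012 (0.83). Dhx33 is an RNA helicase, Urb1 a ribosome biogenesis factor and Gldc a subunit of the glycine cleavage system. They were chosen for this likeness, so their r is a description, and libraries share their depth and scaling across all genes.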

How the data were processed

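RNA was measured in 15 libraries of embryonic small intestine, 5 per genotype. Per the labels' protocols, polyA libraries were made with a TruSeq v2 kit, a kit without strand information, so that antisense overlaps share reads. Reads were aligned with GSNAP to GRCm38, per the submitters' processing notes. Its version, its settings and the gene models counted: not given in the sources used here. The deposited counts are uniquely aligned reads per gene model, per the file headers, and totalled 31896399 to 38532127 per library. The deposited RPKM values were adjusted by library size factors, per the file headers, and served only to compare levels between genes and as an alternative. Gene names came from RefSeq (GRCm38.p6), which named 31049 of 36528 IDs.

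The deposited counts were fitted in edgeR 4.0.16 (R 4.3.3) with TMM scaling, filterByExpr (minimum count 10, minimum total 15), robust quasi-likelihood tests and 1 mean per genotype. Benjamini-Hochberg adjustment covered 18370 genes, with a threshold of 0.05. The biological coefficient of variation was 0.174. Levels are CPM scaled by TMM factors, and log2 CPM used a prior count of 2. Correlations over libraries used 100000 resamples in NumPy 2.4.6. The code was tested on simulated counts. Alternatives used DESeq2 1.42.0 and limma 3.58.1 with a pseudocount of 1 on the RPKM scale, other scalings, filters and covariates, each library left out in turn, and the 2 runs of consecutive sample ID numbers (6 and 9 libraries), which the labels do not explain.

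All 10 genes are described in every comparison. From each pathway list the text names the genes that passed or, where none did, the 2 of smallest p. The 5 genes most like Lgr5 and the 5 most like Axin2 were taken by Pearson's r. The members and lists were chosen with earlier results of these data known. The labels carry no replicate numbers, so libraries were numbered by accession and no pairing exists.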

Additional observations from a re-analysis of the deposited data

How the results depend on the processing

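No paired analysis was possible because the labels carry no replicate numbers. The number of the 10 genes called was 0 in each comparison under the main settings and under all 32 alternatives. Among the 32 was the main fit read at a stricter threshold of 0.01, which could neither call more genes nor turn a sign. The smallest adjusted p was 0.0669 in C362A against wildtype, 0.484 in the knockout against wildtype and 0.0831 in C362A against the knockout. The number of all genes called in C362A against wildtype ranged far more widely. It was 15 with all libraries and 16 with the ID run as a block. It was 1807 without C362A replicate 5, 2478 within the second run of ID numbers, which does not hold that library, and 0 within the first. The cause of this range was not tested. Of 320 log2 fold changes per comparison, 28, 31 and 28 turned sign, none past the threshold and most of them near 0 to begin with. With library totals as the only scaling, the values were Tnfrsf19 -0.013 and Prom1 -0.0091 in the knockout against wildtype, then Ascl2 0.038 and Axin2 0.028 in C362A against the knockout. With the ID run as a block, the values were Lgr5 0.0023 in the knockout against wildtype. Within the first run of ID numbers, the values were Ascl2 -0.19, Axin2 -0.061, Znrf3 -0.046, Nkd1 -0.053 and Tnfrsf19 -0.064 in C362A against wildtype, then Ascl2 -0.27 and Tnfrsf19 -0.19 in the knockout against wildtype, then Ascl2 0.084, Rnf43 0.092, Nkd1 -0.16 and Prom1 -0.0045 in C362A against the knockout. Within the second run, the values were Smoc2 -0.015 in C362A against wildtype, then Lgr5 0.043, Olfm4 -0.11, Rnf43 0.032 and Prom1 -0.047 in the knockout against wildtype, then Axin2 0.040 and Smoc2 -0.012 in C362A against the knockout. Against their values in the first run, those in the second were 0.30 for Znrf3 and 0.25 for Tnfrsf19 in C362A against wildtype, and 0.17 for Tnfrsf19 in the knockout against wildtype. With the epithelial marker level as a covariate, the values were Olfm4 0.064, Axin2 -0.057 and Smoc2 -0.033 in C362A against wildtype, then Prom1 -0.0024 in the knockout against wildtype, then Ascl2 0.13 in C362A against the knockout. With the enterocyte marker level as a covariate, the values were Olfm4 0.74, Axin2 -0.16, Smoc2 -0.095, Znrf3 -0.032 and Tnfrsf19 -0.091 in C362A against wildtype, then Znrf3 0.019 in the knockout against wildtype, then Olfm4 0.62, Smoc2 -0.083, Znrf3 -0.051, Nkd1 -0.13 and Tnfrsf19 -0.18 in C362A against the knockout. With the level of Y-linked genes as a covariate, the values were Lgr5 -0.013 and Smoc2 -0.0021 in C362A against wildtype, then Lgr5 0.0037 in the knockout against wildtype, then Lgr5 -0.017 and Ascl2 0.11 in C362A against the knockout. By limma-voom, the values were Lgr5 0.0072 in the knockout against wildtype, then Ascl2 0.026 in C362A against the knockout. By limma on log2(RPKM + 1), the values were Ascl2 0.0080 in C362A against the knockout. Leaving out each library in turn, the log2 fold changes that turned sign in C362A against wildtype ranged from -0.047 to 0.077 for Axin2, from -0.071 to 0.14 for Lgr5, from -0.45 to 0.040 for Olfm4 and from -0.048 to 0.11 for Smoc2. Leaving out each library in turn, the log2 fold changes that turned sign in the knockout against wildtype ranged from -0.035 to 0.085 for Axin2, from -0.072 to 0.11 for Lgr5, from -0.043 to 0.46 for Olfm4, from -0.046 to 0.055 for Prom1, from -0.092 to 0.015 for Rnf43, from -0.12 to 0.038 for Smoc2, from -0.086 to 0.15 for Tnfrsf19 and from -0.13 to 0.0079 for Znrf3. Leaving out each library in turn, the log2 fold changes that turned sign in C362A against the knockout ranged from -0.096 to 0.16 for Ascl2, from -0.040 to 0.035 for Axin2 and from -0.071 to 0.13 for Lgr5. Without a turn in sign, the estimates of at least 0.1 in size that moved by over 1.5 times ranged from 0.16 to 0.34 for Ascl2 in C362A against wildtype, from 0.091 to 0.25 for Znrf3 in C362A against wildtype, from 0.0084 to 0.25 for Tnfrsf19 in C362A against wildtype, from 0.079 to 0.34 for Ascl2 in the knockout against wildtype, from 0.054 to 0.15 for Nkd1 in the knockout against wildtype and from -0.58 to -0.27 for Olfm4 in C362A against the knockout. Olfm4 in the other comparisons moved as much for several libraries left out. The 17 relations with marker lists and the 2 between members that passed kept their sign in deviations from genotype means and within both runs. Depth was alike in all libraries. It limits Ascl2 and Lgr5 most, with 145 to 271 and 261 to 485 reads.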
